A study of Homo sapiens with 12 samples.

Results

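The genes examined were 10 transcription factors of lymphoid development, IKZF1, IKZF2, IKZF3, PAX5, EBF1, TCF7, LEF1, BCL11A, BCL11B and GATA3, taken by gene symbol from the 28395 genes of the expression table. They were measured by RNA sequencing in KG1a, an established line from acute myeloid leukaemia whose cells resemble immature CD34-positive blood progenitors. All cells grew in RPMI medium with serum, carried no introduced change according to the labels, and were sorted as CD34-positive. Bright cells had high surface CD38 and CLL-1 (the C-type lectin encoded by CLEC12A), and dim cells had low levels of both. The 4 groups, with 3 libraries each, were hypoxic bright, hypoxic dim, normoxic bright and normoxic dim, with hypoxia at 3% oxygen and its duration not given. All 12 libraries carried the same batch date. The labels do not say whether the 3 libraries of a group came from separate cultures, so p-values measure only the spread between these libraries, which may be technical.

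Ikaros (IKZF1), Helios (IKZF2) and Aiolos (IKZF3) are zinc finger proteins that bind DNA as pairs with each other and recruit the NuRD chromatin remodelling complex. Ikaros is needed for the lymphoid branch of blood formation, and Aiolos acts mainly in more mature B, T and NK cells. EBF1 and PAX5 set up and keep the B cell programme, whereas TCF7, BCL11B and GATA3 do so in T cells, LEF1 works beside TCF7 at the end of Wnt signalling, and BCL11A acts in B cell progenitors and represses fetal globin genes in erythroid cells. Myeloid leukaemias can carry transcripts of several of these genes.

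The sort was visible in CD38, which averaged 142 ± 18.1 normalized units in hypoxic bright and 15.7 ± 8.33 in hypoxic dim cells, and 69.7 ± 11.2 in normoxic bright and 5.0 ± 2.65 in normoxic dim cells (SD, n = 3 each). A normalized unit is a read count divided by the size factor of its library, and values of different genes were compared only after division by the exon length. CLEC12A, the other gated marker, did not follow its gate, with 20.3 ± 11, 21.0 ± 16.6, 13.3 ± 7.51 and 18.3 ± 7.57 units in hypoxic bright, hypoxic dim, normoxic bright and normoxic dim cells. CD34, the progenitor antigen shared by all gates, stood between 28691 and 32370 units in the bright libraries and between 17184 and 20882 in the dim libraries. Values summed to between 31828256 and 32560463 per library. Some libraries also held transcripts of genes used as markers of other cell types, and the source of these transcripts was not tested. Airway epithelium markers summed to 130 to 1250 units in hypoxic bright, 1176 to 18249 in hypoxic dim, 325 to 7184 in normoxic bright and 292 to 350 in normoxic dim libraries. SCGB1A1 and SCGB3A1, which define club cells, were at 0 throughout, while 13 of the 15 markers were above 0 in some library. Neutrophil granule markers reached 15138 units in hypoxic dim library 1 and at most 1754 in any other library, and 7 of 8 were above 0, with DEFA4 at 0. The highest sum was nearly all PRTN3, MPO, AZU1 and ELANE, which reached 7043, 4618, 1936 and 1526 units in hypoxic dim libraries. LTF and CAMP had at most 1 and 2 units. CTSG went the other way, with 27 to 32 units in hypoxic bright and 11 to 19 in hypoxic dim libraries. Skeletal muscle markers, all 15 of them above 0 in some library, reached 4546 units in normoxic dim library 1 and 3196 in normoxic bright library 1.

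The promoter windows of the 3 genes raised in bright relative to dim cells under hypoxia (IKZF1, IKZF2 and PAX5, values below) are shown because these genes moved in the same direction. Each runs from 250 bases before to 50 bases after a RefSeq transcript start on GRCh38.p14, and it is the listed window whose start lies closest to the outermost exon edge in the expression table. That start lay 1251 bases from the edge for IKZF1, 1810 for IKZF2 and 1051 for PAX5, so no window reached it. Which start these cells used was not tested. Capitals mark the Ikaros core TGGGAA and the core of the hypoxia-inducible factors, ACGTG or GCGTG, each searched on both strands. The windows are chr7:50304466-50304765 on the plus strand for IKZF1, chr2:213152407-213152706 on the minus strand for IKZF2 and chr9:37034219-37034518 on the minus strand for PAX5.
IKZF1: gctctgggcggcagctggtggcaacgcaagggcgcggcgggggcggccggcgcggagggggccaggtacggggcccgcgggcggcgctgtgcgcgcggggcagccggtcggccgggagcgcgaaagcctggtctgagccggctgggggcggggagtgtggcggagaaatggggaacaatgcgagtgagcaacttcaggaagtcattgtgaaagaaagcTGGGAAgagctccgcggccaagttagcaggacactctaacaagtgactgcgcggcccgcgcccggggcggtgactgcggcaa
IKZF2: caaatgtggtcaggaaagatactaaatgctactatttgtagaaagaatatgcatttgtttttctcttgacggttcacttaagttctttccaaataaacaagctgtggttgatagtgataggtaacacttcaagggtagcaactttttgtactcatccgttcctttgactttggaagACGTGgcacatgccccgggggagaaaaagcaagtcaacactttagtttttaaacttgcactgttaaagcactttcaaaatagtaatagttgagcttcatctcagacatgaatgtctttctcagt
PAX5: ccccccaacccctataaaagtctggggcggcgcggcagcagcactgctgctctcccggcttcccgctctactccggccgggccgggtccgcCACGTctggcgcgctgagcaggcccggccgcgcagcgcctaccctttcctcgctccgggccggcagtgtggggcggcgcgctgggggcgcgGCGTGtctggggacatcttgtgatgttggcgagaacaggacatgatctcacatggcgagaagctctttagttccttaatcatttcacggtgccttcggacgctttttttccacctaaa
The IKZF1 window held 1 Ikaros core, at base 219, and no match to the hypoxia core. The IKZF2 window held 1 hypoxia core, at base 177, and the PAX5 window held 2, at bases 92 and 183, neither window having an Ikaros core. Among all 35116 RefSeq promoter windows of this length, 24.0% held an Ikaros core and 48.4% a hypoxia core, so the matches describe the letters and not a bound site. The windows also differed in base composition, with 35 CpG in IKZF1, 4 in IKZF2 and 30 in PAX5, against a median of 14 over all windows.

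Per kilobase of exon, IKZF1 was the most abundant of the 10 genes, with a mean of 1009 normalized units per kb over the 12 libraries and a range of 813 to 1184. LEF1 followed at 522 units per kb (442 to 582), then BCL11A at 333 (289 to 357) and GATA3 at 263 (224 to 302). The ranges of IKZF1 and LEF1 overlapped no neighbour in this order, whereas BCL11A and GATA3 overlapped each other. A lower tier followed, with PAX5 at 22.5 units per kb (15.9 to 31.5), IKZF3 at 9.56 (2.10 to 25.3) and IKZF2 at 7.12 (1.54 to 14.9). The IKZF3 range overlapped those of PAX5 and IKZF2, which did not overlap each other. BCL11B at 1.72 units per kb (0.868 to 3.35), TCF7 at 0.478 (0 to 1.54) and EBF1 at 0.112 (0 to 0.673) were close to the bottom of the scale. KG1a thus carried T lineage factors at very unequal levels, with GATA3 and LEF1 in the upper tier and TCF7 and BCL11B near 0. Among B lineage factors, PAX5 was present in every library while EBF1 was at or near 0. The plot of levels per kilobase shows this order and the genes whose 4 groups spread most, IKZF3 and IKZF2 among those in the lower tier.

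**Figure D1:**
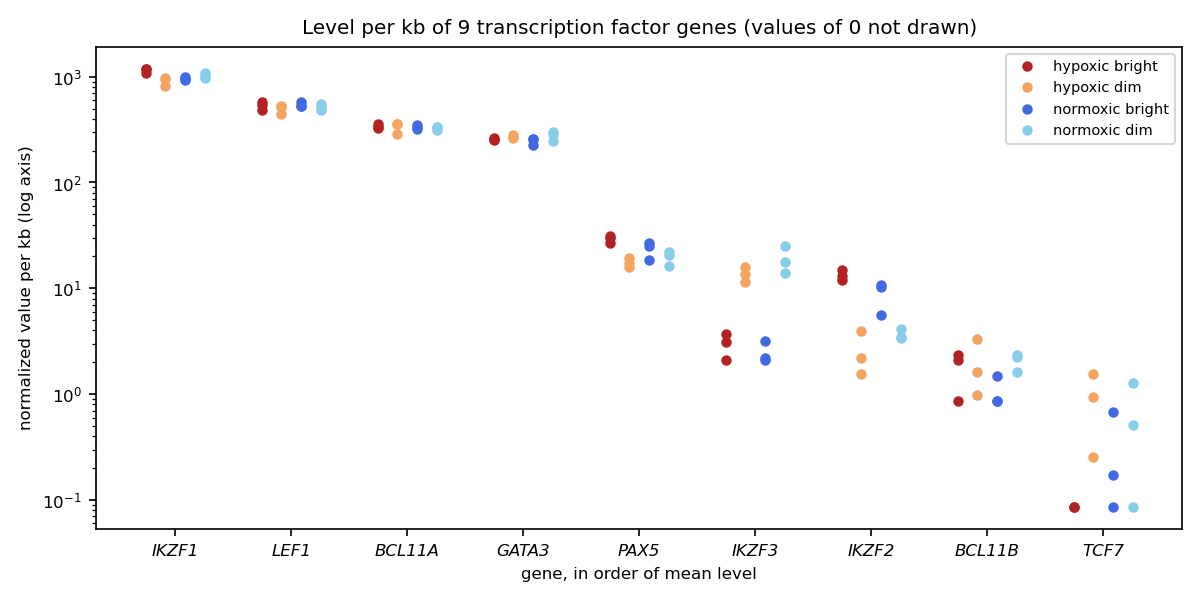
Normalized value per kb of exon (log axis) of 9 of the 10 genes in order of mean level, with 1 point per library coloured by group and values of 0 not drawn. IKZF1 lies between 813 and 1184 units per kb, and IKZF2 and IKZF3 between 1.54 and 25.3 with bright and dim points apart.

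Of the 10 genes, 9 passed the filter on low values (at least 10 units in at least 3 libraries), and EBF1, which never reached 10, was not tested. TCF7 reached 10 in 3 libraries, all of them dim, so it was tested only through libraries where it was high. Fold changes below are those of log2 of the value plus 1, fitted with limma with Benjamini-Hochberg adjustment over all 15057 genes tested, 2-sided, and a gene passed at an adjusted p under 0.05. An error after a log2 value is a standard error and one after normalized units is an SD of 3 libraries.

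**Figure D2:**
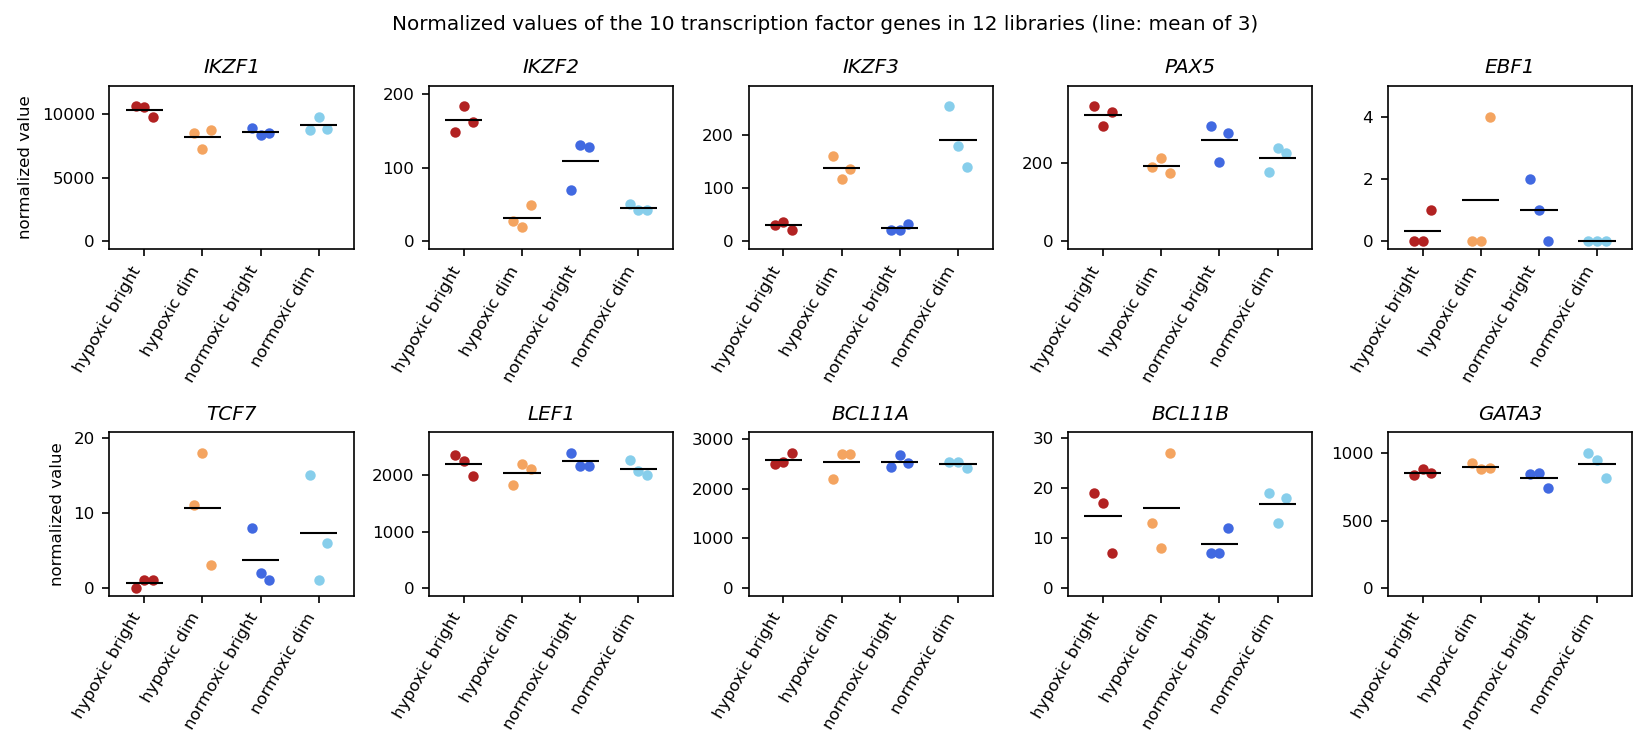
Normalized values of the 10 genes, 1 panel per gene, with 1 point per library and a line at the mean of 3, and groups from left to right hypoxic bright, hypoxic dim, normoxic bright and normoxic dim. IKZF2 is high and IKZF3 low in bright cells, while LEF1, BCL11A and GATA3 overlap between bright and dim.

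In hypoxia, bright cells had more IKZF1, IKZF2 and PAX5 and less IKZF3 transcript than dim cells. Thus 3 of the 9 tested genes rose, 1 fell and 5 did not pass, against 26.5% of all tested genes called (12.9% higher and 13.6% lower). In normoxia, IKZF2 rose, IKZF3 fell and 7 did not pass, against 6.66% of all tested genes called (2.88% higher and 3.79% lower). IKZF2 and IKZF3 therefore passed in both comparisons of bright with dim cells, in opposite directions. The median log2 fold change of the 9 tested genes, TCF7 included, was 0.04 in hypoxia, against -0.03 over all genes tested, and -0.08 in normoxia, against -0.01. Because these are bulk samples, fewer cells of a type and less RNA per cell cannot be told apart.

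**Figure D3:**
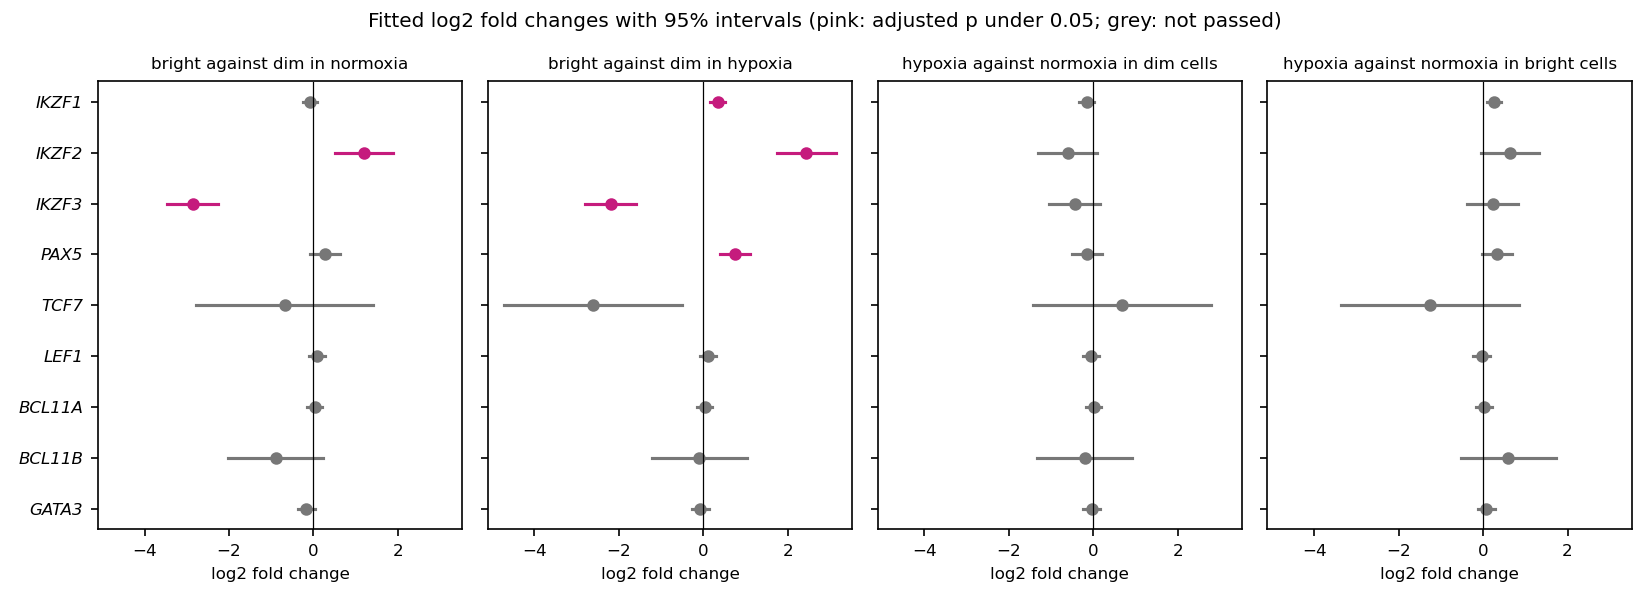
Fitted log2 fold changes of the 9 tested genes with 95% confidence intervals, in 4 panels, the first pair comparing bright with dim cells (normoxia, then hypoxia) and the second pair comparing hypoxia with normoxia (dim, then bright cells). Pink marks genes past an adjusted p of 0.05, which are IKZF2 and IKZF3 in normoxia and IKZF1, IKZF2, IKZF3 and PAX5 in hypoxia, and the wide TCF7 intervals belong to a gene that was tested only through dim libraries where it was high.

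IKZF3 encodes Aiolos, a factor of mature B cells and a degradation target of the drug lenalidomide through cereblon. Its gene (ID 22806) lies at chr17:39757715-39864188 on the minus strand, with 9 exon intervals. In normoxia it had 21, 22 and 32 units in bright cells, against 253, 179 and 140 in dim cells. In hypoxia it had 31, 37 and 21 units in bright cells, against 160, 116 and 136 in dim cells. Every bright library was thus below every dim library in both oxygen conditions. Bright and dim libraries were apart, in either direction, for 23.7% of all tested genes in normoxia and 41.1% in hypoxia. The log2 fold change was -2.86 ± 0.28 (SE) in normoxia, a 7.28-fold lower level in bright cells, with an adjusted p of 3.65e-05 by limma. In hypoxia it was -2.20 ± 0.28, a 4.59-fold lower level in bright cells, with an adjusted p of 0.000220 by limma. The summed mature T cell markers, mostly CD3D, were at 4938 to 5041 units in hypoxic bright, 7962 to 8617 in hypoxic dim, 4048 to 4581 in normoxic bright and 7293 to 10055 in normoxic dim libraries. Of these 8 markers, 7 were above 0 and CD8B was at 0, with CD3G at most 12 and CD28 at most 24 units. NK cell markers, all 7 above 0 in some library, summed to 2716 to 3176, 3991 to 4543, 2182 to 2825 and 4089 to 5211 units in the same order of groups. This NK sum was mostly NKG7 and PRF1. PRF1 went the other way in hypoxia, at 1029 to 1174 units in bright and 601 to 713 in dim libraries. GNLY, KLRD1 and NCR1 had at most 16, 5 and 8 units. The part of these T and NK cell markers in the IKZF3 difference was not tested.

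IKZF2 encodes Helios, known from regulatory T cells and early T and NK lineage cells. The gene (ID 22807) lies at chr2:212999684-213154266 on the minus strand, with 13 exon intervals, and its promoter window is printed above. It had 148, 183 and 162 units in hypoxic bright cells, against 27, 19 and 49 in hypoxic dim cells. Values of 69, 131 and 128 were found in normoxic bright cells, against 51, 43 and 42 in normoxic dim cells. All bright libraries lay above all dim libraries of the same oxygen condition, and the gap was narrow in normoxia, where bright library 1 came closest to the dim libraries. The log2 fold change was 2.44 ± 0.32 in hypoxia, 5.42-fold, with an adjusted p of 0.000272 by limma. In normoxia the log2 fold change was 1.20 ± 0.32, 2.30-fold, with an adjusted p of 0.041 by limma. That normoxic call was lost when any of 5 libraries was left out. The adjusted p was 0.159 without normoxic bright library 2 and 0.129 without normoxic bright library 3. It was 0.0823, 0.117 and 0.135 without normoxic dim library 1, 2 or 3, whereas without normoxic bright library 1 it was 0.0122. In these 6 fits the log2 fold change lay between 1.04 and 1.5. Leaving out the pair of libraries highest in airway markers (normoxic bright 2 and normoxic dim 1) gave an adjusted p of 0.236, and leaving out the pair highest in granule markers (normoxic bright 3 and normoxic dim 3) gave 0.276. The log2 fold changes were then 1.13 and 1.01. Without the pair highest in muscle markers (normoxic bright 1 and normoxic dim 1) it was 1.58, with an adjusted p of 0.0274 by limma. Calls over all tested genes also fell, from 1003 to 357 (airway), 497 (granule) and 629 (muscle).

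Taken per kilobase, IKZF2 and IKZF3 changed places between bright and dim cells. The IKZF2 level per kb was 3.88 to 6.27 times the IKZF3 level in hypoxic bright libraries and 2.67 to 4.84 times in normoxic bright libraries. In dim cells the order was reversed, with IKZF3 per kb 3.41 to 7.51 times IKZF2 in hypoxic dim and 4.10 to 6.10 times in normoxic dim libraries. The 6 bright and 6 dim libraries did not overlap in this ratio, which adds no evidence because each gene alone already separated them. IKZF2 had at least 69 units in every bright and at most 51 in every dim library. IKZF3 had at most 37 units in every bright and at least 116 in every dim library. Ratios of other gene pairs were not examined. IKZF2 and IKZF3 stayed small beside IKZF1, which made up 97.1% to 99.2% of the summed level per kb of the 3 genes.

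**Figure D4:**
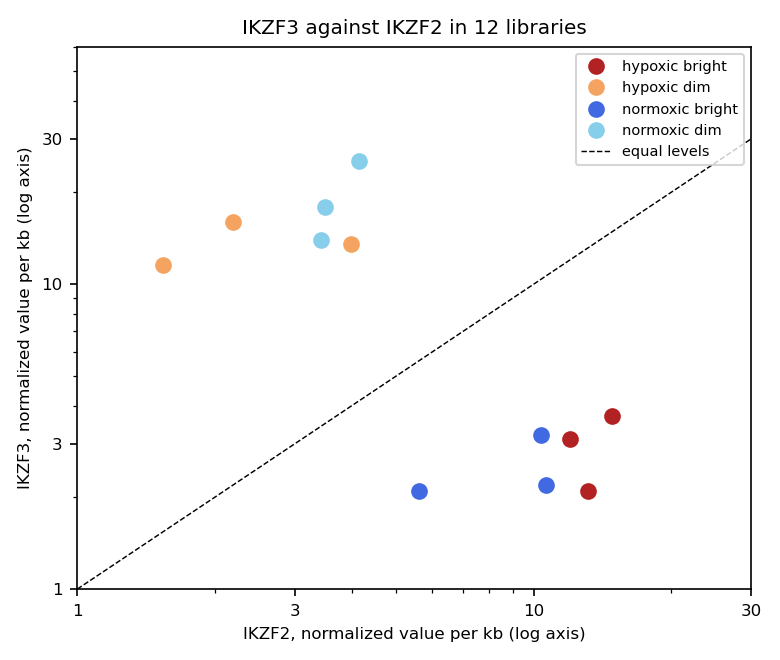
IKZF3 against IKZF2 in normalized units per kb, both on log axes, with 1 point per library coloured by group and a dashed line where both are equal. The 6 bright libraries lie below the line and the 6 dim libraries above it.

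IKZF1 encodes Ikaros, the founding member of the family. Its gene (ID 10320) lies at chr7:50303465-50405101 on the plus strand, with 15 exon intervals. Hypoxic bright cells had 10648, 10602 and 9774 units, against 8528, 7310 and 8795 in hypoxic dim cells. Normoxic bright cells had 8966, 8358 and 8516 units, against 8742, 9811 and 8860 in normoxic dim cells. The bright and dim libraries did not overlap in hypoxia and overlapped in normoxia. In hypoxia the log2 fold change of bright against dim was 0.34 ± 0.08, 1.26-fold, with an adjusted p of 0.00782 by limma. In normoxia it was -0.08 ± 0.08, with a 95% confidence interval of -0.25 to 0.09 and an adjusted p of 0.631. The hypoxic call held when each single library was left out, but the adjusted p was 0.126 without hypoxic bright 2 and hypoxic dim 2, which were the pair highest both in airway and in muscle markers, and the log2 fold change was then 0.24.

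PAX5, the factor that commits cells to the B lineage and activates CD79A, lies at chr9:36833275-37035319 on the minus strand (ID 5079), with 12 exon intervals. It had 344, 293 and 329 units in hypoxic bright cells, against 190, 212 and 173 in hypoxic dim cells. Normoxic bright cells had 293, 202 and 277 units, against 176, 238 and 224 in normoxic dim cells. The groups were apart in hypoxia and overlapped in normoxia. The log2 fold change was 0.75 ± 0.17 in hypoxia, 1.68-fold, with an adjusted p of 0.00597 by limma, and 0.27 ± 0.17 in normoxia, with an interval of -0.09 to 0.62 and an adjusted p of 0.431. EBF1, which acts with PAX5 in B cell commitment, lies at chr5:158695908-159099780 on the minus strand (ID 1879). It had 0, 0 and 1 units in hypoxic bright, 0, 0 and 4 in hypoxic dim, 2, 1 and 0 in normoxic bright and 0, 0 and 0 in normoxic dim cells, so the files give no level from which a change could be read.

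TCF7 encodes the T cell factor TCF-1 and lies at chr5:134114703-134148229 on the plus strand (ID 6932). It had 0, 1 and 1 units in hypoxic bright cells, against 11, 18 and 3 in hypoxic dim cells, and 8, 2 and 1 in normoxic bright cells, against 15, 1 and 6 in normoxic dim cells. The hypoxic groups did not overlap and the normoxic groups did. It did not pass in either comparison, and because it entered the test only through dim libraries where it was high, no fold change or p is given for it here. The TCF7 fold changes drawn in the figure or given with the alternatives below are not read as a result. The hypoxic dim library with most TCF7, number 2, was also the one with most airway epithelium markers (18249 units), whose part in these values was not tested. BCL11B, which fixes T cell identity, lies at chr14:99169287-99271713 on the minus strand (ID 64919). It had 19, 17 and 7 units in hypoxic bright cells, against 13, 8 and 27 in hypoxic dim cells, and 7, 7 and 12 in normoxic bright cells, against 19, 13 and 18 in normoxic dim cells. The normoxic groups were apart, yet the log2 fold change of -0.89 ± 0.52 had an adjusted p of 0.401 by limma, and in hypoxia it was -0.10 ± 0.52.

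LEF1, BCL11A and GATA3 passed in no comparison. LEF1, the partner of beta-catenin, lies at chr4:108047545-108168956 on the minus strand (ID 51176), and had 2362, 2246 and 1996 units in hypoxic bright, 1823, 2198 and 2113 in hypoxic dim, 2401, 2162 and 2174 in normoxic bright and 2273, 2082 and 2006 in normoxic dim cells. Its exons overlap those of the antisense gene LEF1-AS1 over 279 bases (6.76% of its length), and whether reads were counted by strand is not given in the sources used here. LEF1-AS1 had 1 to 14 units. BCL11A lies at chr2:60451167-60553498 on the minus strand (ID 53335), and had 2502, 2527 and 2720 units in hypoxic bright, 2200, 2689 and 2700 in hypoxic dim, 2438, 2669 and 2522 in normoxic bright and 2542, 2532 and 2406 in normoxic dim cells. GATA3, which directs early T cells and Th2 cells, lies at chr10:8045428-8075201 on the plus strand (ID 2625), and had 836, 885 and 852 units in hypoxic bright, 926, 882 and 888 in hypoxic dim, 850, 855 and 745 in normoxic bright and 1005, 952 and 815 in normoxic dim cells. All 3 genes overlapped between bright and dim libraries in both oxygen conditions. The 95% confidence intervals of the log2 fold change of bright against dim in normoxia were -0.11 to 0.28 for LEF1, -0.15 to 0.21 for BCL11A and -0.38 to 0.03 for GATA3. In hypoxia they were -0.09 to 0.31 for LEF1, -0.14 to 0.22 for BCL11A and -0.27 to 0.13 for GATA3, so a change of 1.5-fold or more lay outside all 6 intervals.

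Hypoxia was also set against normoxia within each sorted population. These comparisons share libraries with those of bright against dim, so the values are given side by side and not as separate evidence. In dim cells 0 of 9 tested genes passed (0.232% of all tested genes did), and 0 had an unadjusted p under 0.05 by limma. No member had groups apart in dim cells, against 17.5% of all tested genes. In bright cells 0 of 9 passed (0.837% of all tested genes did), and 1, IKZF1, had an unadjusted p under 0.05. IKZF1 and IKZF2 had hypoxic bright libraries all above the normoxic bright libraries, against 22.3% of all tested genes apart in either direction. The log2 fold change of IKZF1 was 0.26 ± 0.08 in bright cells (interval 0.09 to 0.43, adjusted p 0.131) and -0.16 ± 0.08 in dim cells (adjusted p 0.321). That of IKZF2 was 0.64 ± 0.32 in bright cells (interval -0.06 to 1.33, adjusted p 0.361) and -0.60 ± 0.32 in dim cells (interval -1.30 to 0.09, adjusted p 0.348). For both genes the estimates thus had opposite signs in bright and dim cells, though none passed the adjustment. PAX5 changed by 0.34 ± 0.17 on the log2 scale in bright and -0.14 ± 0.17 in dim cells, and IKZF3 by 0.23 ± 0.28 and -0.44 ± 0.28, with none of these past the threshold.

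Whether hypoxia acted differently on bright and dim cells was tested as an interaction, in which 0 of 9 tested genes passed, against 2.36% of all tested genes. An unadjusted p under 0.05 was found for 2 of them, IKZF1 and IKZF2. The log2 difference was 0.42 ± 0.11 for IKZF1 (interval 0.18 to 0.66, unadjusted p 0.0022, adjusted p 0.0608 by limma) and 1.24 ± 0.46 for IKZF2 (interval 0.26 to 2.22, unadjusted p 0.0172, adjusted p 0.139 by limma). Hypoxic dim library 3 bore on both results. Without it the difference was 0.47 for IKZF1, with an adjusted p of 0.0228, and 1.60 for IKZF2, with an adjusted p of 0.0275. It had the highest IKZF1 and IKZF2 values of the 3 hypoxic dim libraries. Other alternatives moved both results the other way. Over all settings the adjusted p by limma ran from 0.0228 to 0.490 for IKZF1 and from 0.0275 to 0.647 for IKZF2. The log2 difference ran from 0.33 to 0.47 for IKZF1 and from 0.47 to 1.60 for IKZF2. PAX5 had a difference of 0.48 ± 0.23 (adjusted p 0.249) and IKZF3 one of 0.67 ± 0.40 (adjusted p 0.348).

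Partners of the Ikaros proteins were called in hypoxia at a share close to that of all genes. Of 20 Ikaros family and NuRD partner genes, 19 were tested, with 0 called in normoxia and 3 higher and 2 lower in bright cells in hypoxia, 26.3% against 26.5% of all tested genes. CHD4, the ATPase of NuRD, rose, with 26052 ± 713 units in hypoxic bright and 18483 ± 744 in hypoxic dim cells (log2 fold change 0.50 ± 0.09, adjusted p 0.00186 by limma). Its relative CHD3 also rose, by 0.33 on the log2 scale. MBD2, a methyl-DNA binding subunit, fell, with 1916 ± 53.4 units in hypoxic bright and 2493 ± 245 in hypoxic dim cells, and MTA3 fell too, with 584 ± 27.9 and 719 ± 45.2 units.

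Among 30 other lymphoid transcription factors, 27 were tested, with 1 higher and 6 lower in bright cells in normoxia (25.9% called, against 6.66% of all tested genes) and 4 higher and 5 lower in hypoxia (33.3%, against 26.5%). TBX21, the T-bet factor of Th1 and NK cells, fell in both, with 193 ± 11.8 units in normoxic bright against 630 ± 130 in normoxic dim cells (adjusted p 4.06e-05 by limma), and 169 ± 25.3 units in hypoxic bright against 472 ± 77.2 in hypoxic dim cells. ID2, an inhibitor of E proteins needed by NK cells, had 1052 ± 55.4 units in hypoxic bright and 2351 ± 215 in hypoxic dim cells (log2 fold change -1.16 ± 0.12, adjusted p 4.01e-05 by limma). It also fell in normoxia, with 1296 ± 194 units in bright and 2407 ± 276 in dim cells. NFIL3, another factor of NK cell development, fell in both. In normoxia it had 401 ± 31.3 units in bright cells, against 772 ± 72.9 in dim cells. In hypoxia it had 473 ± 46.5 units in bright cells, against 654 ± 54.0 in dim cells. In the other direction, ID1 rose in normoxia, with 1119 ± 141 units in bright and 734 ± 62.5 in dim cells, and MEF2C rose in hypoxia, with 2463 ± 129 in bright and 1788 ± 205 in dim cells. ZBTB16, the PLZF factor of innate-like lymphocytes, had 3648, 4337 and 3609 units in hypoxic bright cells, against 1274, 964 and 1110 in hypoxic dim cells, and 2299 to 3817 units in normoxic bright against 1684 to 3239 in normoxic dim cells. It was the list's only gene past the test of the difference of the hypoxia effect, at 1.54 ± 0.31 on the log2 scale with an adjusted p of 0.0264 by limma.

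Of 20 B lineage genes only 7 reached the level needed for testing. Genes of B cell identity, several of them targets of PAX5 and EBF1, were nearly absent, with MS4A1 at most 5 units, CD79B at most 4 and BLNK and RAG2 at 0 in all 12 libraries, and CD79A ranged between 23 and 60 units. Bright cells had 1 higher and 0 lower of these 7 in normoxia (14.3% called, against 6.66% of all tested genes) and 2 higher and 0 lower in hypoxia (28.6%, close to the 26.5% of all tested genes). IGLL1, part of the surrogate light chain of pre-B cells, had 1046, 1062 and 954 units in hypoxic bright cells, against 701, 634 and 617 in hypoxic dim cells (log2 fold change 0.65 ± 0.11, adjusted p 0.00112 by limma). It was also the 1 gene of all lists past the threshold for hypoxia against normoxia in bright cells, with a log2 fold change of 0.51 ± 0.11 over the 778, 716 and 661 units of normoxic bright cells and an adjusted p of 0.0475 by limma. SYK, a kinase of B cell receptor signalling, rose in hypoxia to 11813 ± 311 units in bright cells, against 8694 ± 87.3 in dim cells. BTK, another such kinase, had 340 to 547 units in normoxic bright and 115 to 143 in normoxic dim cells (adjusted p 0.0375 by limma), and did not pass in hypoxia, with 532 ± 80.7 units in bright and 416 ± 400.2 in dim cells. Normoxic bright library 3, with most BTK in its group, also had the most neutrophil granule (1754 units) and monocyte (1748 units) markers in that group, whose part was not tested. Summed mature B cell markers, mostly BANK1, were 4594 to 5138 units in hypoxic bright, 3628 to 4698 in hypoxic dim, 4129 to 4458 in normoxic bright and 4033 to 4492 in normoxic dim libraries.

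T lineage genes were lower in bright cells more often than higher. Of 22 such genes 14 were tested, with 1 higher and 8 lower in normoxia (64.3% called, against 6.66% of all tested genes) and 2 higher and 6 lower in hypoxia (57.1%, against 26.5%), and median log2 fold changes of -1.27 and -1.07. CD3E, a chain of the T cell receptor complex, had 101 ± 9.54 units in normoxic bright against 400 ± 133 in normoxic dim cells (log2 fold change -1.93 ± 0.19, adjusted p 3.65e-05 by limma), and 159 ± 16.5 in hypoxic bright against 499.7 ± 33.3 in hypoxic dim cells. The CD247 chain fell in normoxia, at 44.0 ± 11.8 units in bright and 227 ± 48.5 in dim cells, and fell in hypoxia, at 59.0 ± 7.81 in bright and 178 ± 15.5 in dim cells. CD7, an early T and NK antigen, went the other way, with 4053 ± 203 units in normoxic bright against 2458 ± 52.0 in normoxic dim cells and 4272 ± 364 units in hypoxic bright against 2822 ± 196 in hypoxic dim cells. UBASH3A, a regulator of T cell receptor signalling, rose in hypoxia at low level, with 49.7 ± 7.23 units in bright and 25.0 ± 3.61 in dim cells. PTCRA, the alpha chain of the pre-T cell receptor, was at 0 in every library.

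NK cell genes had 12 of 18 tested, with 0 higher and 5 lower in normoxia (41.7% called, against 6.66% of all tested genes) and 2 higher and 6 lower in hypoxia (66.7%, against 26.5%). NKG7, a protein of cytotoxic granules, had 1602 ± 191 units in normoxic bright against 3774 ± 523 in normoxic dim cells. It also fell in hypoxia, with 1732 ± 183 units in bright and 3500 ± 198 in dim cells. The chemokine XCL2 had 58.3 ± 9.61 units in normoxic bright against 611 ± 235 in normoxic dim cells, and 53.7 ± 13.4 in hypoxic bright against 508 ± 25.4 in hypoxic dim cells. XCL1, its near-identical copy, fell in both oxygen conditions as well, and reads could be split between both copies, so each is uncertain alone. The perforin gene PRF1 and NCAM1 rose in hypoxia, with PRF1 at 1122 ± 81.0 units in bright and 660.3 ± 56.3 in dim cells and NCAM1 at 750.3 ± 74.8 in bright and 398 ± 124 in dim cells.

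Signalling partners of the T cell factors were mixed. Of 18 Notch pathway genes 14 were tested, with 1 higher and 1 lower in normoxia (14.3% called, against 6.66% of all tested genes) and 5 higher and 2 lower in hypoxia (50%, against 26.5%). The coactivator MAML3 rose in both, at 1511 ± 68.2 units in hypoxic bright and 835 ± 19.4 in hypoxic dim cells, and at 1250.3 ± 136 in normoxic bright and 923 ± 117 in normoxic dim cells. MAML2 fell in normoxia, with 17 ± 7.0 units in bright and 50.7 ± 11.7 in dim cells. The Notch-cutting protease ADAM10 rose in hypoxia, with 7303 ± 735 units in bright and 4502 ± 891 in dim cells, while the ligand JAG2 fell, with 157 ± 10.7 units in bright and 372 ± 47.7 in dim cells, as did the receptor NOTCH3, with 16.7 ± 6.66 and 103 ± 53.0 units. Of 20 TCF and LEF cofactors and Wnt targets 17 were tested, with 1 higher (AXIN1, 2588 ± 246 units in bright and 2070.3 ± 96.7 in dim cells) and 0 lower in normoxia (5.88% called, against 6.66% of all tested genes) and 4 higher and 2 lower in hypoxia (35.3%, against 26.5%). CTNNB1, which encodes beta-catenin, had 9703 ± 165 units in hypoxic bright and 8135 ± 283 in hypoxic dim cells, and APC, which helps to degrade it, rose as well, with 1336 ± 124 and 1081 ± 66.6 units. The corepressor TLE5 fell, with 6912 ± 148 and 8921 ± 671 units, and TLE1 had 0, 3 and 0 units in hypoxic bright cells, against 30, 77 and 15 in hypoxic dim cells (adjusted p 0.016 by limma), the highest again in the library with most airway markers.

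The GATA family list had 7 of 10 genes tested, with 3 higher and 0 lower in normoxia and the same counts in hypoxia (42.9% called in each, against 6.66% and 26.5% of all tested genes). GATA2, the stem and progenitor cell member, rose to 11311 ± 477 units in normoxic bright, against 6980.0 ± 368 in normoxic dim cells (adjusted p 0.000125 by limma), and to 10188 ± 784 in hypoxic bright, against 6448 ± 600.2 in hypoxic dim cells, whereas GATA3 did not pass. LMO2, a bridge in GATA complexes, rose in normoxia and LYL1, its partner, rose in both, with LMO2 at 4114 ± 251 units in normoxic bright and 3074 ± 182 in normoxic dim cells and LYL1 at 9263 ± 542 in hypoxic bright and 7491 ± 466 in hypoxic dim cells. The 8 globin genes listed were not tested, with no value above 5, and the fetal genes HBG1 and HBG2, known targets of BCL11A in erythroid cells, were at 0 in all libraries. No gene of any list passed for hypoxia against normoxia in dim cells.

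**Figure D5:**
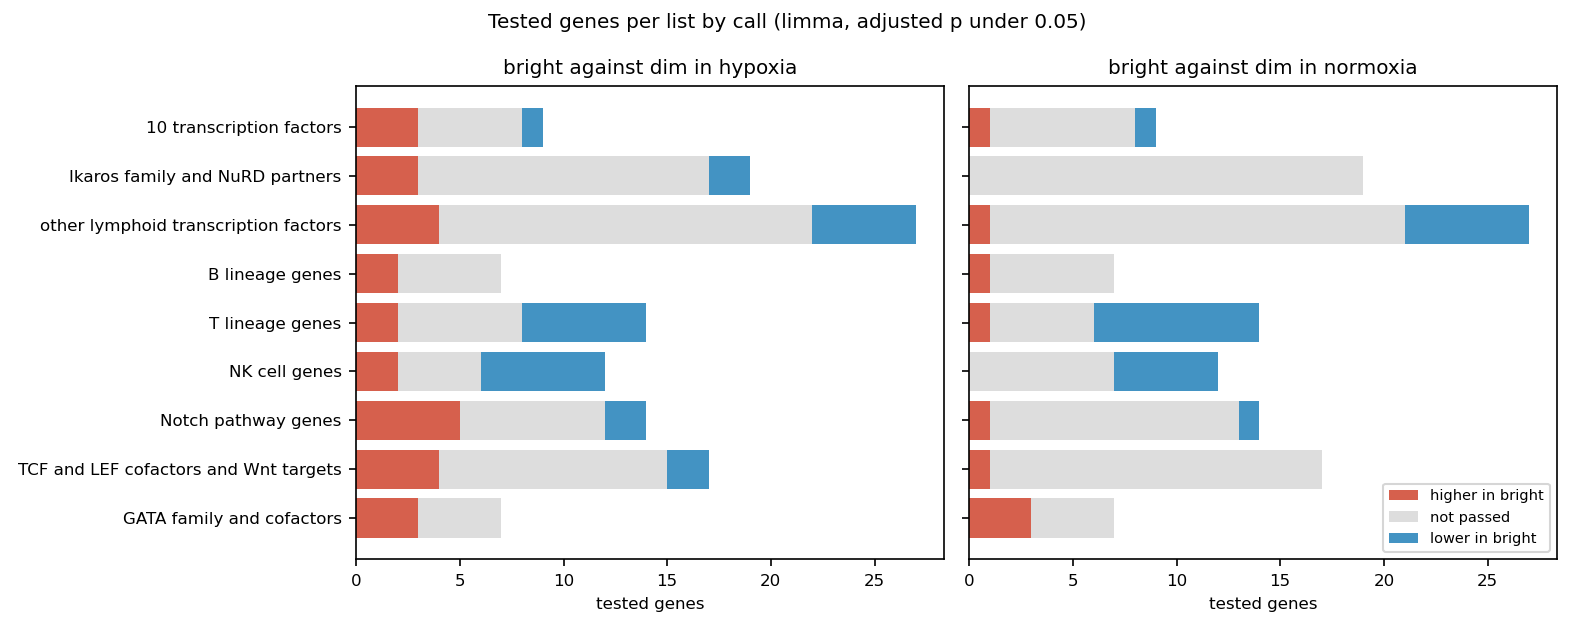
Number of tested genes per list by call at an adjusted p under 0.05, for bright against dim in hypoxia (left) and in normoxia (right), with red for higher, grey for not passed and blue for lower in bright cells. T lineage genes have 6 lower in hypoxia and 8 in normoxia, and GATA family genes have 3 higher and 0 lower in each.

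For the 3 genes with the widest spread of group means, the most similar patterns across the 12 libraries were found by the root mean square difference of log2 values centred per gene, among 15056 other tested genes. IKZF3 was closest to CRTAM at 0.28, FGFBP2 at 0.30 and VCAN at 0.30, against a median of 1.33 over all genes. CRTAM averaged 23.3 units in hypoxic bright, 122 in hypoxic dim, 17 in normoxic bright and 143 in normoxic dim cells. VCAN is also one of the monocyte markers, which summed to 238 to 264 units in hypoxic bright, 994 to 6181 in hypoxic dim, 349 to 1748 in normoxic bright and 1378 to 1955 in normoxic dim libraries. VCAN itself made up most of that sum in every library except hypoxic dim library 1 and normoxic bright library 3. It had 216 to 243 units in hypoxic bright and 206 to 266 in normoxic bright libraries. In dim libraries it had 938 to 1002 units in hypoxia and 1230 to 1857 in normoxia. CD14 and FCN1 reached at most 15 and 4 units in any library. Hypoxic dim library 1 (6181 units) and normoxic bright library 3 (1748 units) also had the most granule markers of their groups. IKZF2 was closest to ZBTB20 at 0.29, NPR3 at 0.34 and SHANK2 at 0.40, against a median of 1.05. ZBTB20, itself a zinc finger repressor, averaged 2091 units in hypoxic bright, 431 in hypoxic dim, 1595 in normoxic bright and 644 in normoxic dim cells. The low gene TCF7 was closest to CAP2 at 0.50, PTPN21 at 0.58 and CREB3L1 at 0.63, against a median of 1.36, all of them with group means under 40. Because TCF7 was tested only through dim libraries where it was high, its likeness is not read as a result.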

How the data were processed

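RNA sequencing of mRNA from 12 libraries of sorted KG1a cells was analysed. Per the submitters' processing notes, reads were trimmed with Trimmomatic 0.39 and aligned with STAR 2.4.2a to hg38. Which tool counted the reads, with which annotation and strand, is not given in the sources used here. The deposited values form a score: the authors scaled each library's read counts by a size factor and rounded them, a description read from the values themselves. Because these are not raw counts, no count test was used.

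The tests used limma 3.58.1 (R 4.3.3) on log2 of the value plus 1, with a mean per group over all 12 libraries, empirical Bayes moderation and a mean trend, leaving 8 residual degrees of freedom. Of 28395 genes, 15057 with at least 10 units in at least 3 libraries were tested. The code was tested on simulated data. Per-kb levels are values divided by the summed exon length in the table. Named were all 10 transcription factors, up to 2 genes per list, direction and comparison with the smallest adjusted p, and the 3 most similar genes for each of the 3 genes with the widest spread. The B lineage, globin and sort marker genes given as absent or as a check were chosen after their values were seen. So were ZBTB16, ID2 and XCL1 in normoxia and NFIL3 and NKG7 in hypoxia. The genes and lists were chosen with earlier results of these data known. Replicate libraries differed by more than sampling noise and each counted as 1. Promoter sequences were matched by symbol to a RefSeq table, in which 9 of the 10 genes had an entry. The alternatives were rescaling to equal sums, quantile normalization, pseudocounts of 0.1 and 10, dropping the filter or setting it at a mean of 50, dropping the trend, fitting only the groups compared, a block for the replicate number, leaving out each library in turn, and leaving out in each group the library with the highest sum of airway, muscle or granule markers.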

Additional observations from a re-analysis of the deposited data

How the results depend on the processing

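The number of called genes among the 9 tested was 4 for bright against dim in hypoxia and 2 in normoxia, and 0 in the other comparisons. In normoxia it was 1 under quantile normalization, limma without the trend, no filter, and without the libraries highest in airway or granule markers, and 1 to 2 when single libraries were left out. For the difference of the hypoxia effect it was 0 to 2 when single libraries were left out, and 2 without hypoxic dim library 3. The adjusted p of that difference by limma reached 0.490 for IKZF1 and 0.647 for IKZF2 under other alternatives. IKZF3 passed in both comparisons of bright with dim under every alternative run, with log2 fold changes of -3.25 to -2.49 in normoxia and -2.48 to -1.83 in hypoxia, and IKZF2 and PAX5 in hypoxia did so too, at 2.06 to 2.80 and 0.68 to 0.89. The IKZF2 call in normoxia was lost in 10 alternatives, with an adjusted p of 0.0122 to 0.276 over all. The IKZF1 call in hypoxia was lost without the pair of libraries highest in airway and muscle markers, and the count of calls in hypoxia ranged from 3 to 5, the fifth being TCF7, which was tested only through dim libraries where it was high.

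Sign changes concerned values that never passed, and the cause was not tested. Under quantile normalization the log2 change was 0.50 for BCL11B in hypoxia (bright against dim), 0.11 for TCF7 (hypoxia in bright cells), and -0.0063 for LEF1 and -0.031 for BCL11A (difference of effects). Without the libraries highest in airway markers it was -0.018 for BCL11A, 0.28 for BCL11B and 0.042 for GATA3 (hypoxia in dim cells), -0.022 for IKZF3 (hypoxia in bright cells) and -0.015 for LEF1 (difference). Without those highest in muscle markers it was -0.018, 0.28 and 0.042 for the same 3 genes in dim cells, and -0.054 for IKZF3 and 0.0022 for LEF1 in bright cells. Without those highest in granule markers it was -0.047 for BCL11A in hypoxia (bright against dim), -0.014 for GATA3 (hypoxia in bright cells), and -0.056 for LEF1 and -0.055 for BCL11A (difference). When single libraries were left out, BCL11A ranged over -0.0075 to 0.058 in normoxia and -0.062 to 0.086 in hypoxia for bright against dim, -0.035 to 0.11 for hypoxia in dim and -0.015 to 0.058 in bright cells, and -0.090 to 0.058 for the difference. BCL11B ranged over -0.48 to 0.34 for bright against dim in hypoxia and -0.64 to 0.18 for hypoxia in dim cells. For hypoxia in dim cells the range was -0.13 to 1.31 for TCF7, -0.11 to 0.025 for LEF1 and -0.12 to 0.029 for GATA3. LEF1 ranged over -0.083 to 0.038 for hypoxia in bright cells and -0.056 to 0.093 for the difference.

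With the replicate number as a block the counts of called genes stayed at 2, 4, 0, 0 and 0. Whether the numbers pair the libraries is not settled by the values, since the deviations also hold the airway, muscle and granule marker transcripts that differed between libraries. A correlation of deviations over 0.1 was found for 7 of 18 same-numbered and 13 of 36 different-numbered pairs. The highest correlation was 0.448 for a same-numbered and 0.408 for a different-numbered pair, and 13 of 36 best matches shared a number. TCF7 and BCL11B gave no value under the filter at a mean of 50, and TCF7 gave none under several others. The fit of only the groups compared is the main design for the difference, so it was not run there. Values near 0 limit TCF7, EBF1 and BCL11B, whose changes cannot be read at this depth.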
